A study of Malus domestica with 36 samples.

Results

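PIP1 was 1 gene of the 57423 in the deposited table, taken as the row with that symbol and followed through all 12 groups of libraries. It was chosen on the measured difference between low oxygen storage and RA. Its low oxygen and RA levels are therefore described here without a test, and tests are kept for other differences. RNA came from the peel of 'Granny Smith' apples, in a study of how static and dynamic low oxygen storage act on superficial scald, a browning disorder of stored fruit. The 36 libraries form 12 groups of 3 biological replicates, one for each combination of storage regime, time (T1 or T2) and SL (present in the sample title or not). The 3 regimes were RA, ULO with 1% oxygen and DCA_CF with less than 1%, and all fruit shared the cultivar. The labels expand neither RA nor SL, give no length of storage for T1 and T2, and do not say how many fruits went into a replicate, so p-values measure the spread between these libraries. ULO and DCA_CF are together called low oxygen.

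In plants the symbol PIP1 commonly stands for a group of plasma membrane intrinsic proteins, the aquaporins of the cell surface, which let water and some small solutes cross the membrane. In maize, PIP1 proteins reach the plasma membrane together with members of the sister group PIP2, with which they pair. Aquaporins of this group are studied in fruit for water movement during growth, ripening and storage. The table and the gene table used here give the symbol of PIP1 alone, with no description of its product, and its sequence was not examined. The synonyms MdPIP1a (LOC103455112) and MdPIP1b (LOC103455107) belong to a pair of other genes in the table, which were used for comparison. Close members of one family can share reads. How close these 3 genes are in sequence was not examined, so how far their levels are uncertain for that reason is unknown. Levels are in FPKM, which corrects the number of fragments for gene length and library size, so that levels can be set side by side between genes.

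Depth in reads was not given, so counting error is unknown. Libraries summed to between 689868 and 790211 FPKM, and 33512 to 37276 genes in each were above 0. AFS1 (LOC103446592), the synthase of the peel sesquiterpene alpha-farnesene, was at 247 FPKM or more in every library. A search for chloroplast genome genes by the symbols psa, psb, pet, ndh and rbcL found none, but it covered only symbols in the gene table. In bulk peel, fewer cells that carry a transcript and less of it per cell cannot be told apart.

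PIP1 was lowest in RA without SL. At T1 the RA libraries without SL held 1.43, 1.90 and 2.05 FPKM. At T2 the RA libraries without SL held 5.52, 5.83 and 6.04 FPKM. With SL, RA libraries lay higher at both times: 19.6, 21.2 and 23.7 FPKM at T1, and 27.1, 28.6 and 29.2 FPKM at T2. These 4 RA groups did not overlap one another.

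In low oxygen PIP1 was never below 104 FPKM. At T1 the ULO libraries without SL held 104, 107 and 108 FPKM, and those with SL 172.7, 173 and 174 FPKM. The DCA_CF libraries at T1 held 120.3, 121 and 122 FPKM without SL, and 195, 198 and 199 FPKM with SL. All 12 low oxygen libraries of T1 thus lay far above the 6 RA libraries of that time, and within each regime the SL libraries were the higher ones. At T2 the ULO libraries held 131, 133 and 134 FPKM without SL, and 142.2, 142.5 and 147 FPKM with SL. The DCA_CF libraries at T2 held 218, 225 and 226 FPKM without SL, and 139.7, 149 and 154 FPKM with SL. In DCA_CF at T2 the SL libraries were the lower ones, the reverse of T1.

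**Figure D1:**
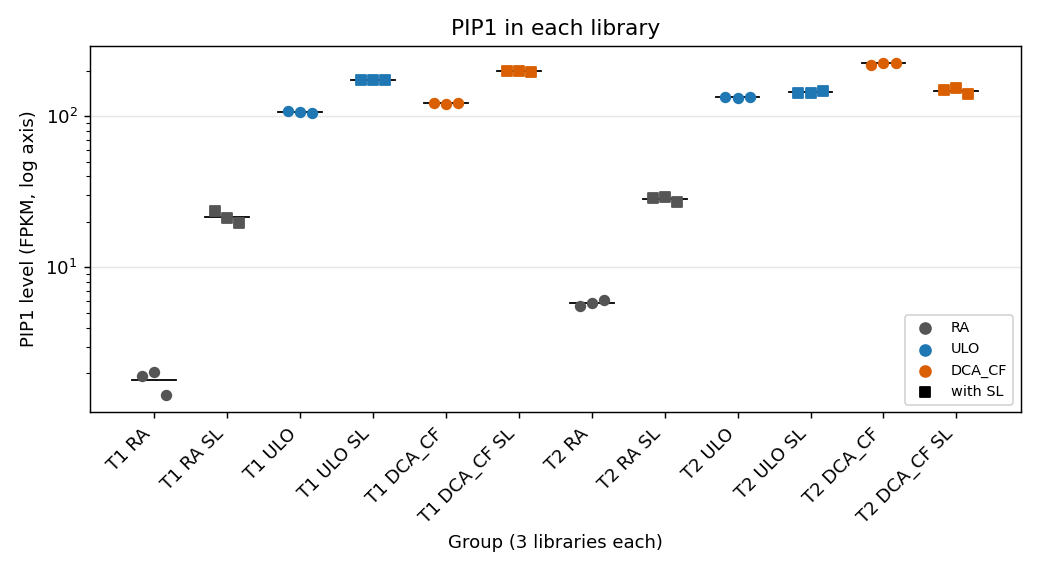
PIP1 level in FPKM (log axis) in each of the 36 libraries, by group of 3; colours mark the regime, squares mark SL and short lines the group means. The 12 RA libraries lie between 1.43 and 29.2 FPKM and the 24 low oxygen libraries between 104 and 226 FPKM, with no overlap.

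Ordered by mean level, the groups ran from RA at T1 (1.79 ± 0.324 FPKM, SD, n = 3) through RA at T2 (5.80 ± 0.262), RA with SL at T1 (21.5 ± 2.06) and RA with SL at T2 (28.3 ± 1.095). The low oxygen groups followed, from ULO at T1 (107 ± 2.23), DCA_CF at T1 (121 ± 0.837), ULO at T2 (133 ± 1.24) and ULO with SL at T2 (144 ± 2.81). Above them stood DCA_CF with SL at T2 (147 ± 7.12), ULO with SL at T1 (173 ± 0.563), DCA_CF with SL at T1 (197 ± 2.19) and DCA_CF at T2 (223 ± 4.21). Of the 11 pairs of neighbours in this order, only ULO with SL and DCA_CF with SL at T2 overlapped. The widest steps were the 3.24-fold, 3.71-fold and 3.77-fold gaps below RA at T2, RA with SL at T1 and ULO at T1, whereas neighbouring low oxygen groups stood 1.02-fold to 1.17-fold apart. Replicates spread most in RA at T1, where the coefficient of variation was 18.1%, and by 0.325% to 4.83% in low oxygen. In RA at T1, PIP1 stood above 32.5% to 37.0% of the genes detected in a library. In DCA_CF at T2 it stood above 98.8% to 98.9% of them.

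As a description of the contrast that chose the gene, mean PIP1 without SL at T1 was 59.4-fold higher in ULO than in RA and 67.6-fold higher in DCA_CF. At T2 without SL the ratios were 22.9 and 38.4. With SL they were 8.06 and 9.19 at T1, and 5.09 and 5.21 at T2. On the log2(FPKM + 1) scale, which understates the change from low levels, the 8 differences from RA ran from 2.31 to 5.46. With the mean of ULO and DCA_CF against RA, PIP1 ranked 18th from the top of 32923 genes at T1 without SL, 20th at T2 without SL, 53rd at T1 with SL and 132nd at T2 with SL. The smaller ratios with SL went with higher RA levels: at T1, RA with SL held 12 times its level without SL, while ULO and DCA_CF each held 1.63 times theirs. At T2, RA with SL held 4.88 times its level without SL, ULO 1.08 times and DCA_CF 0.662 times. There the smaller DCA_CF ratio also went with a lower DCA_CF level.

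PIP1 differences within low oxygen were tested with limma across all genes and 36 libraries, 16 in all, of which 13 passed an FDR of 0.05. Values below are log2 differences ± standard error on the log2(FPKM + 1) scale. That error comes from 1 spread shared by all 12 groups, RA included. On this scale the SD of PIP1 was 0.0544 to 0.173 in RA groups and 0.00466 to 0.0698 in low oxygen groups. Intervals and p-values within low oxygen thus draw partly on the RA libraries. Many genes pass at the small spread of these data, so the share of all genes called in the same direction is given with the calls. The RA libraries are those on which PIP1 was chosen for being low, so its 5 differences among RA groups are given as a description with no test. The low oxygen libraries were part of the same choice, whose stated ground was their difference from RA. As earlier results of these data were known, the tests among them are not fully independent of the choice.

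To see how the 2 low oxygen regimes compare, DCA_CF was set against ULO. PIP1 was higher in DCA_CF at T2 without SL, by 0.74 ± 0.0572 (limma adjusted p = 6.12e-11), or 1.68-fold in mean FPKM, with all 3 DCA_CF libraries above all 3 ULO libraries. Among all genes, 15.1% were called higher there. At T1 the difference was small: 0.18 ± 0.0572 without SL (limma adjusted p = 0.0106, with 16.6% of genes called higher) and 0.19 ± 0.0572 with SL (limma adjusted p = 0.0124, with 23.9% called higher), each 1.14-fold. The T1 call with SL ended with RLE size factors, at 0.073, and with upper quartile scaling, at 0.036. At T2 with SL the regimes differed by 0.034 (95% interval -0.084 to 0.15, limma adjusted p = 0.922), 1.02-fold, and their libraries overlapped. Thus 3 of the 4 comparisons passed, all with DCA_CF higher.

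Within each regime and time, libraries with SL were compared with those without it. As a description, the RA libraries with SL stood 3.01 ± 0.0572 above those without it at T1 and 2.11 ± 0.0572 at T2, the latter 4.88-fold in mean FPKM. In low oxygen at T1 PIP1 rose with SL, by 0.697 ± 0.0572 in ULO (limma adjusted p = 1.72e-11) and 0.700 ± 0.0572 in DCA_CF (limma adjusted p = 1.55e-11). Of all genes, 27.3% rose with SL in ULO and 37.0% in DCA_CF. The difference between these responses, DCA_CF minus ULO, was 0.0028 (95% interval -0.16 to 0.17, limma adjusted p = 0.99).

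At T2 SL went with a lower PIP1 level in DCA_CF, by -0.59 ± 0.0572 (limma adjusted p = 5.53e-10), 0.662 times the level without SL. There 45.5% of genes were called lower and the median of all genes moved by -0.244, and scaling between libraries set the PIP1 difference anywhere from -0.68 to -0.28, with the call kept each time. In ULO at T2 PIP1 stood 0.12 ± 0.0572 higher with SL (95% interval -0.0016 to 0.23), short of the threshold (limma adjusted p = 0.0818). That value passed with RLE size factors at 0.38 and with upper quartile scaling at 0.39, and was -0.01 with equal totals, in a comparison where the median of all genes lay at -0.206 before scaling. It also passed unchanged in size when the 2 groups were fitted alone, and when RA replicate c of T1, the lowest of all PIP1 values, was left out. The ULO libraries of T2 with and without SL did not overlap. The SL response differed between DCA_CF and ULO at T2, by -0.71 ± 0.0809 (limma adjusted p = 2.04e-07, with 9.77% of genes called lower). The response was lower at T2 than at T1 by -0.58 ± 0.0809 in ULO (limma adjusted p = 5.37e-07, with 33.5% of genes called lower) and by -1.29 ± 0.0809 in DCA_CF (limma adjusted p = 6.62e-14, with 44.0% called lower). In RA the same quantity was -0.91 ± 0.0809, without a test. Scaling between libraries set the ULO value from -0.61 to -0.42 and the DCA_CF value from -1.30 to -0.94, with both calls kept.

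Over time, PIP1 without SL rose from T1 to T2 in both low oxygen regimes, by 0.32 ± 0.0572 in ULO (limma adjusted p = 2.23e-05, with 36.7% called higher) and 0.87 ± 0.0572 in DCA_CF (limma adjusted p = 1.16e-13, with 41.2% called higher). In mean FPKM these were 1.25-fold and 1.84-fold. The ULO value was 0.17 with RLE size factors or upper quartile scaling, still past the threshold. Both low oxygen regimes with SL held less at T2: ULO changed by -0.27 ± 0.0572 (limma adjusted p = 0.000601, with 15.0% of genes called lower) and DCA_CF by -0.42 ± 0.0572 (limma adjusted p = 6.79e-07, with 28.7% called lower). As a description, RA stood 1.29 ± 0.0572 higher at T2 without SL and 0.38 ± 0.0572 higher with SL. The libraries of T1 and T2 did not overlap in any of these 6 comparisons.

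**Figure D2:**
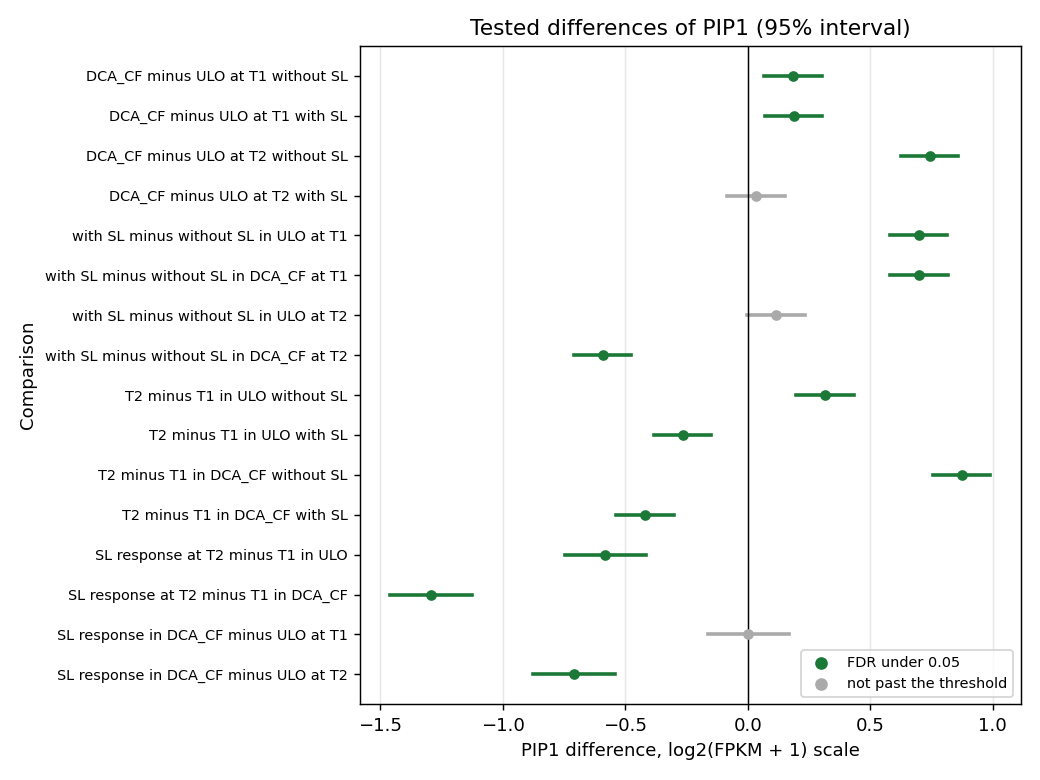
Log2 difference of PIP1 (x axis, log2(FPKM + 1) scale) in the 16 tested comparisons (y axis), with 95% intervals; green passed an FDR of 0.05 in limma and grey did not. T2 minus T1 in DCA_CF without SL stands farthest to the right at 0.87, and the change of the SL response over time in DCA_CF farthest to the left at -1.29.

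MdPIP1a and MdPIP1b stood at far higher levels than PIP1, and differed less between regimes. MdPIP1a ranged from 413 ± 13.1 FPKM (SD, n = 3) in RA at T2 to 1656 ± 11.9 in DCA_CF at T1. MdPIP1b ranged from 101 ± 4.797 FPKM in RA at T2 to 954 ± 13.8 in DCA_CF at T1. PIP1 thus peaked in DCA_CF at T2, and both other genes in DCA_CF at T1. As neither was chosen for it, low oxygen could be tested against RA for these 2 genes.

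Without SL both genes were higher in low oxygen at both times. At T1 the RA libraries held 718, 725 and 736 FPKM of MdPIP1a, against 1546 to 1580 in ULO and 1645 to 1669 in DCA_CF, a difference of 1.15 ± 0.0262 (limma adjusted p = 3.37e-24). MdPIP1b held 128, 129 and 131 FPKM in RA, against 626 to 635 in ULO and 942 to 969 in DCA_CF, a difference of 2.57 ± 0.0295 (limma adjusted p = 4.39e-31). The RA libraries did not overlap those of low oxygen for either gene, and 33.6% of all genes were called higher. At T2 without SL the differences were 1.36 ± 0.0262 for MdPIP1a (limma adjusted p = 5.26e-26) and 2.40 ± 0.0295 for MdPIP1b (limma adjusted p = 1.55e-30), among 46.3% of genes called higher. PIP1 itself differed by 5.37 at T1 and 4.67 at T2, given as a description.

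With SL the 3 genes parted. MdPIP1a was lower in low oxygen than in RA at T1, by -0.61 ± 0.0262 (limma adjusted p = 1.67e-17), with 22.7% of genes called lower, while MdPIP1b was higher by 0.64 ± 0.0295 (limma adjusted p = 8.68e-17), with 28.1% called higher. At T2 MdPIP1b was higher by 0.79 ± 0.0295 (limma adjusted p = 5.1e-19), with 20.2% of genes called higher. MdPIP1a was lower at T2 by -0.11 ± 0.0262 (limma adjusted p = 0.000698), with 29.2% called lower. In mean FPKM it was 0.968 times RA in ULO, where libraries overlapped those of RA, and 0.884 times in DCA_CF. The call ended with RLE size factors, and the difference turned in sign, at 0.025, with upper quartile scaling. PIP1 stood higher by 3.05 and 2.32 at the same times, again without a test.

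Both genes were higher with SL in RA, as PIP1 was. MdPIP1a with SL rose by 0.99 ± 0.0303 at T1 (limma adjusted p = 7.34e-21, with 26.4% of genes called higher) and by 1.27 ± 0.0303 at T2 (limma adjusted p = 2.46e-23, with 27.3% called higher). MdPIP1b rose by 1.80 ± 0.034 at both T1 (limma adjusted p = 1.33e-25) and T2 (limma adjusted p = 1.26e-25), against the same shares. In low oxygen at T1, MdPIP1a instead fell with SL, by -0.80 ± 0.0303 in ULO (limma adjusted p = 5.48e-19, with 37.9% of genes called lower) and -0.75 ± 0.0303 in DCA_CF (limma adjusted p = 2.78e-18, with 29.8% called lower). PIP1 rose in both. MdPIP1b rose with SL in ULO at T1, by 0.27 ± 0.034 (limma adjusted p = 8.96e-08, with 27.3% of genes called higher), and fell in DCA_CF, by -0.54 ± 0.034 (limma adjusted p = 6.87e-14, with 29.8% called lower). Scaling between libraries set the ULO value from 0.16 to 0.41. At T2 MdPIP1b rose in ULO by 0.44 ± 0.034 (limma adjusted p = 6.77e-12, with 18.6% of genes called higher), a value that scaling set from 0.31 to 0.72. MdPIP1a fell in DCA_CF at T2 by -0.39 ± 0.0303 (limma adjusted p = 6.05e-12, with 45.5% of genes called lower), or -0.081 with upper quartile scaling. MdPIP1a in ULO at T2 differed by -0.014 ± 0.0303 (limma adjusted p = 0.733), and MdPIP1b in DCA_CF at T2 by -0.055 ± 0.034 (limma adjusted p = 0.169). Both of these turned to higher with SL, and passed, under RLE and upper quartile scaling, and passed as lower with equal totals.

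The SL response of both genes was lower in low oxygen than in RA, a comparison added after the data were seen. For MdPIP1a the difference was -1.76 ± 0.0371 at T1 (limma adjusted p = 2.17e-24) and -1.47 ± 0.0371 at T2 (limma adjusted p = 1.46e-22). For MdPIP1b it was -1.93 ± 0.0417 at T1 (limma adjusted p = 3.6e-24) and -1.61 ± 0.0417 at T2 (limma adjusted p = 2.56e-22). In these tests 26.6% of genes were called lower at T1 and 40.8% at T2. The same quantity for PIP1 was -2.31 at T1 and -2.35 at T2, without a test because it contains the contrast that chose the gene.

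**Figure D3:**
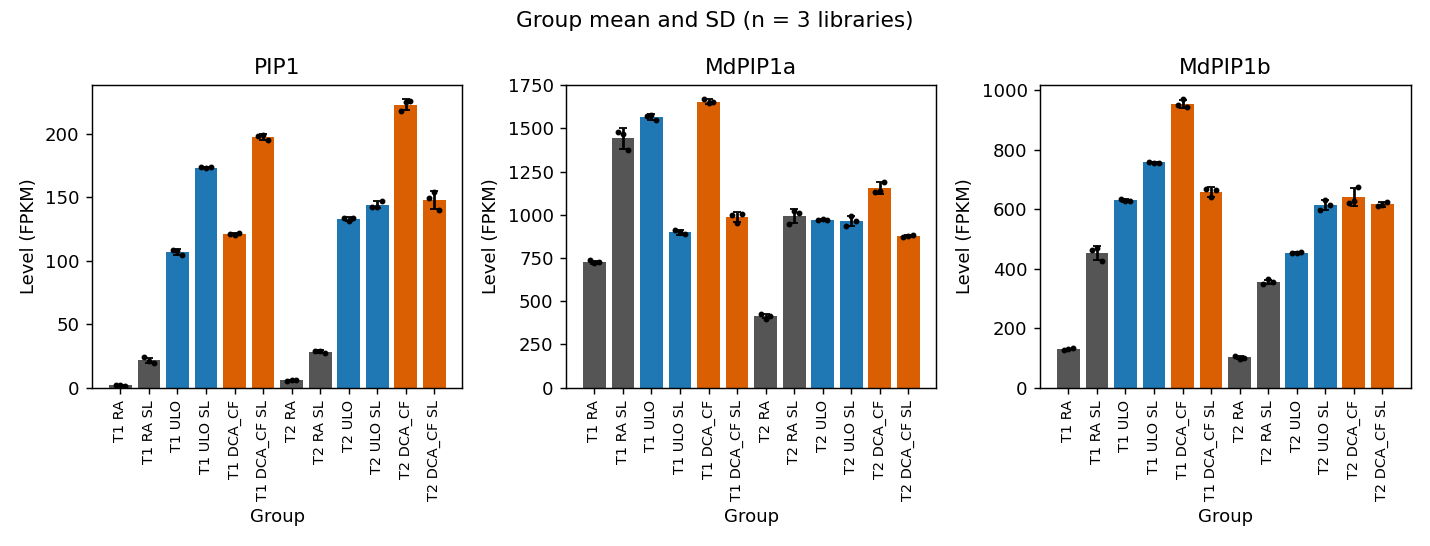
Group mean level in FPKM (bars, y axis from 0 and set for each gene) with SD and the 3 libraries as points, for PIP1, MdPIP1a and MdPIP1b in the 12 groups; grey is RA, blue ULO and orange DCA_CF. PIP1 ran from 1.79 to 223 FPKM, MdPIP1a from 413 to 1656 and MdPIP1b from 101 to 954.

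Within a library the share of PIP1 in the summed FPKM of the 3 genes does not depend on scaling between libraries. That share, looked at after the data were seen, was 0.209% ± 0.0384 in RA at T1 (SD, n = 3) and 1.12% ± 0.0772 in RA at T2. With SL it was 1.12% ± 0.0711 and 2.06% ± 0.113 in RA at T1 and T2. In low oxygen it was 4.44% ± 0.0438 in DCA_CF and 4.63% ± 0.0537 in ULO at T1 without SL, and between 8.37% and 11.1% in the other 6 groups. Low oxygen libraries did not overlap RA libraries in this share, which contains the contrast that chose PIP1 and is given as a description. The summed level of the 3 genes was 858 ± 8.27 FPKM in RA at T1 and 519.9 ± 17.7 in RA at T2. In the other groups it lay between 1378 and 2731 FPKM. Other aquaporin genes may be missing from this sum, as the 3 genes were found by name.

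Genes whose pattern is most like that of PIP1 were found by Pearson's r of group means of log2(FPKM + 1) over the 12 groups, among 19629 genes with a mean of at least 2 on that scale. The r is a description, since the group means share libraries and are spread mainly by RA against low oxygen. Of these genes, 182 (0.927%) had r over 0.9. The closest were LOC103421548 (r = 0.992), LOC103428574 (r = 0.984) and LOC103450805 (r = 0.984). None has a name, and LOC103428574 is absent from the gene table. LOC103421548 stood at 1.57 ± 0.278 FPKM in RA and 132 ± 1.80 in ULO at T1, and with SL at 19.3 ± 0.438 and 266 ± 4.501. At T2 in ULO it was at 208 ± 4.615 FPKM without SL and 138 ± 2.94 with SL, where PIP1 went from 133 to 144 FPKM. The fall was -0.59 on the log2(FPKM + 1) scale, in a comparison where the median of all genes lay at -0.206 before scaling. That fall is a description, as LOC103421548 was picked on these group means. Over the 8 low oxygen groups alone, its r with PIP1 was 0.679.

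Among 173 named genes, the nearest to PIP1 were GATA5 (r = 0.936), WRKY3 (r = 0.934), MEX (r = 0.892), SCL5 (r = 0.885) and NAC2 (r = 0.866). By their symbols GATA5, WRKY3 and NAC2 belong to families of plant transcription factors. Over the 8 low oxygen groups alone, r was 0.733 for GATA5, 0.581 for SCL5 and 0.357 for MEX, but -0.21 for WRKY3 and -0.818 for NAC2. The most opposed named genes were WRKY11 (r = -0.877), WRKY6 (r = -0.876) and WRKY9 (r = -0.865), which were highest in RA without SL. Within the 8 low oxygen groups, r was 0.67 for WRKY11, -0.0465 for WRKY6 and -0.175 for WRKY9. Their opposition to PIP1 thus lay mainly between RA and low oxygen. MdPIP1b came 140th of all genes at r = 0.911, and at -0.012 over the low oxygen groups, and MdPIP1a reached r = 0.516.

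**Figure D4:**
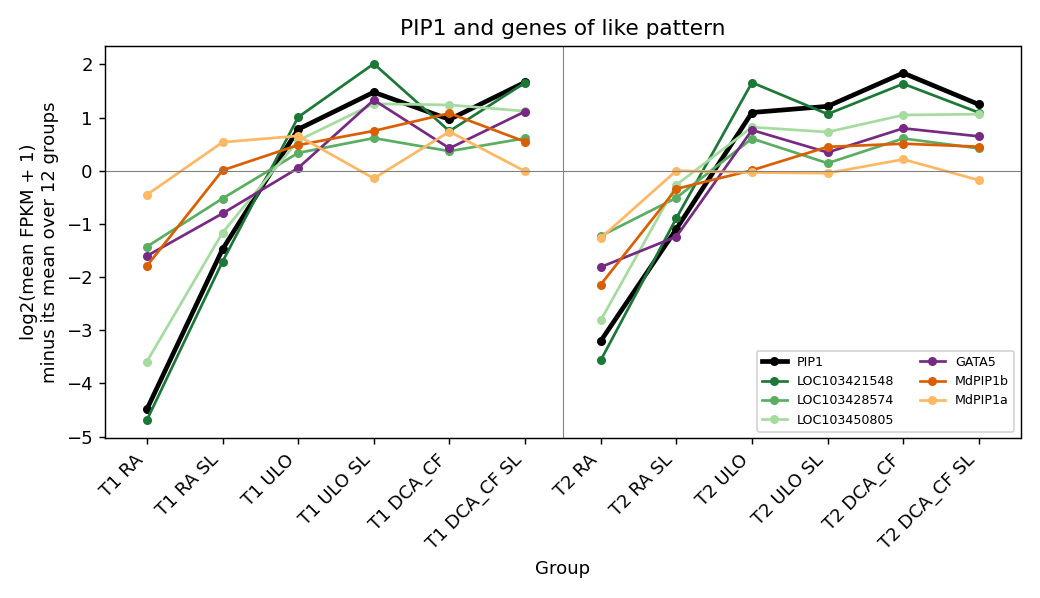
Log2(mean FPKM + 1) minus its mean over the 12 groups (y axis) in each group (x axis, T1 left and T2 right of the line), for PIP1, the 3 genes of closest pattern, GATA5, MdPIP1a and MdPIP1b. LOC103421548 (r = 0.992) follows PIP1 most closely, and MdPIP1a (r = 0.516) least of these.

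Genes known for responses to low oxygen did not share one pattern with PIP1. GAD1, by its symbol a glutamate decarboxylase, had r = 0.792 with PIP1, while GLB1, by its symbol a plant haemoglobin, had -0.478 and Adh1-1 (LOC103428551), an alcohol dehydrogenase of fermentation, had -0.496. GLB1 stood at 1275 FPKM in ULO at T1 and 18.9 in ULO with SL at T1, where PIP1 was higher with SL.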

How the data were processed

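Peel RNA of 36 libraries was read on an Illumina HiSeq from non-directional libraries, per the labels' protocols, so antisense reads count with genes. HISAT2, StringTie and DESeq2 are the tools listed, per the submitters' processing notes; versions, genome build and annotation are not given in the sources used here. The deposited values, 1 column per library, were read here as FPKM, because they are not whole although the sheet is named for counts; an incomplete set of TPM would look the same. Columns headed DCA were matched to DCA_CF titles by time, SL tag and letter.

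Values were taken as log2(FPKM + 1), and 32923 genes reaching 1 FPKM in 3 or more libraries were fitted with 1 mean per group in limma 3.58.1 (R 4.3.3; eBayes with trend; two-sided, Benjamini-Hochberg over all genes, threshold 0.05), with no scaling between libraries. Intervals are 95%. The procedure was tested on simulated data in which a small set of genes changed in 1 group and no others did. That simulation did not cover comparisons in which a large share of genes is called. Names come from a RefSeq gene table of apple (assembly GDT2T_hap1), which held 34074 of the identifiers. No 2 replicates shared more than 0.00279% of identical values. PIP1 and the lists were chosen with earlier results of these data known. Tests of PIP1 among RA groups had been planned and are not reported, since those libraries served to choose the gene. The aquaporin list, by symbol and synonym, held 2 genes besides PIP1. Aquaporin genes without such a name could not be found this way, and only 421 of the 57423 identifiers do not start with LOC. The list may therefore leave out members of the family. Named genes were PIP1, these 2, the 5 named and 3 other genes of highest r, the 3 named genes of lowest r, and GAD1, GLB1 and Adh1-1. Alternatives were a pseudocount of 0.1, no filter, RLE, upper quartile and total scaling, fitting only the compared groups, the replicate letter as a block, and leaving out each library.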

Additional observations from a re-analysis of the deposited data

Results flagged for a closer look

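The SL response of PIP1 differed between times, tested as an interaction in limma: at T2 minus T1 it was -0.58 in ULO and -1.29 in DCA_CF on the log2(FPKM + 1) scale. Scaling between libraries set the ULO value from -0.61 to -0.42 and the DCA_CF value from -1.30 to -0.94. The median of all genes for the DCA_CF difference was -0.299. At T2 the SL response of PIP1 also differed between the low oxygen regimes, by -0.71 for DCA_CF minus ULO.

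The SL response of MdPIP1a differed between low oxygen and RA, by -1.76 at T1 and -1.47 at T2. That of MdPIP1b differed by -1.93 at T1 and -1.61 at T2. At T2 the median of all genes for this difference was -0.226.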

How the results depend on the processing

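Of 16 tested PIP1 differences, 13 passed with a replicate block, the same number as without it, and that of DCA_CF minus ULO at T2 without SL stayed at 0.74. No pairing by letter was seen across all genes, though pairing that acts on few genes could be missed. Residuals of 0 of 198 same-letter pairs correlated above 0.1, at a mean of 0.0029 against -0.0015 for other letters. The number of calls was 12 with a pseudocount of 0.1, 13 under each scaling and without the filter, and 14 with the compared groups fitted alone. DCA_CF minus ULO at T1 with SL lost its call at a pseudocount of 0.1 (0.188), with RLE size factors (0.073) and with upper quartile scaling (0.036). SL in ULO at T2 gained one with RLE size factors (0.38), with upper quartile scaling (0.39) and with the compared groups alone (0.12). Leaving out each library in turn moved it between 0.10 and 0.12, with a call without RA replicate c of T1, and changed no other of the 576 PIP1 values in call or sign. Scaling moved the median of all genes by up to 0.209 in comparisons of libraries with and without SL at T2, by 0.225 in the SL response of low oxygen minus RA at T2 and by 0.245 in that of T2 minus T1 in DCA_CF; the cause was not tested.

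With a pseudocount of 0.1 the described PIP1 differences within RA were 3.52 and 2.27 for SL at T1 and T2, 1.65 for time without SL and -1.26 for the SL response at T2 minus T1. The described difference of low oxygen from RA was 5.92 at T1 without SL with a pseudocount of 0.1 and 5.57 with totals set to 1000000. At T2 without SL it was 4.87 with a pseudocount of 0.1, 4.43 with RLE size factors, 4.56 with upper quartile scaling and 4.74 with equal totals, and at T2 with SL 2.46 with upper quartile scaling. MdPIP1a turned to 0.25 with RLE and 0.26 with upper quartile scaling for SL in ULO at T2, and to 0.025 with upper quartile scaling in low oxygen against RA at T2 with SL. MdPIP1b turned to 0.24 and 0.26 for SL in DCA_CF at T2. The planned change of sequence matching for the aquaporin list was not run, since that list was made by name. With read depth unknown, the precision of PIP1 at 1.43 to 2.05 FPKM in RA at T1 cannot be given.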

Other observations

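The gene table lists no gene that overlaps PIP1, and of the 3 genes listed in the expression table on either side of it, 2 passed the filter on low values. LOC103404604 on one side averaged 3.40 FPKM in RA at T1 and 4.79 in ULO at T1, and ran up to 7.25 in DCA_CF at T2. In RA with SL at T2 it averaged 6.28, above every low oxygen group except DCA_CF at T2, with or without SL. LOC103417604 on the other side was at most 2.63 FPKM, in DCA_CF at T1, and at 0.0902 in ULO with SL at T2, a group where PIP1 stood at 144 FPKM. These genes were looked at after the data were seen.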
